A study of Homo sapiens with 3 samples.

Results

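Before a cell divides it has to copy each chromosome once, and the proteins that do this work in a fixed order. The origin recognition complex marks the starting points, CDC6 and CDT1 load the ring-shaped MCM2-7 helicase there in G1, and CDC45, the GINS complex and the CDC7-DBF4 kinase turn the loaded ring into a moving helicase in S phase. DNA polymerase alpha with primase lays down primers, polymerases delta and epsilon extend them on the PCNA clamp, and FEN1 and LIG1 join the fragments of the lagging strand. Many genes of this machinery are known targets of the E2F transcription factors in cycling human cells, while others are expressed throughout the cycle.

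The 51 genes described here are the rows of the deposited expression table that carry the symbols of 11 steps of this machinery. All 51 were found, each under 1 gene identifier, out of 58039 listed genes. The libraries are RNA sequencing of T47D, an established human breast cancer cell line that expresses estrogen receptor. The shRNA1 and shRNA2 libraries come from T47D cells in which ERINA, a long noncoding RNA, was stably knocked down, with a different short hairpin RNA in each. The control library is labelled as a control genotype, described as carrying a control hairpin, while its shRNA label reads None. Per the labels, hairpins were delivered by lentivirus into target cells and stable cells were selected with puromycin. Each hairpin is 1 stable line with 1 library, the control is 1 library, and no label names separate cultures, so the spread between the 2 knockdown libraries may be technical or may come from the hairpins.

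Levels are in FPKM, a fragment count divided by transcript length and library size, and can be compared between genes. Changes are differences of log2(FPKM + 0.5), knockdown mean minus control, a scale that understates the change of low genes. The test was limma over the 13112 genes with a mean of at least 1 FPKM, and a gene passed at an adjusted p (Benjamini-Hochberg) under 0.05. A single residual degree of freedom (1) is left, given by how far the hairpin libraries lie apart, and the control is assumed to vary like them. No p-value here thus covers more than the spread of those 2 libraries. Limma draws the variance of each gene towards a trend over all tested genes. A standard error (SE) given here is therefore not the hairpin spread of that gene alone. All 51 replication genes passed the filter on low values. The lowest level was 3.02 FPKM (ORC1 with shRNA1) and the highest 185 FPKM (PCNA in the control). Permuting the 3 library labels cannot give a two-sided p below 0.333.

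The series as a whole was checked first. The total FPKM was 860240 with shRNA1, 808451 with shRNA2 and 790290 in the control, and the depth estimated from genes with a single fragment was 3.26e+07 to 3.39e+07 fragments. ERINA, listed under the symbol LINC00992 of which RefSeq gives ERINA as a synonym, was at 5.21 FPKM with shRNA1, 8.91 FPKM with shRNA2 and 63.4 FPKM in the control. Its log2 change was -3.12, and even so ERINA did not pass limma over all genes. A gene that did not pass may therefore still have changed. All 8 luminal breast epithelial markers were expressed, summing to 10044, 8635 and 8274 FPKM in shRNA1, shRNA2 and control. The 8 fibroblast, immune and endothelial markers summed to 1.32, 0.792 and 0.467 FPKM, with CD3E at 0 in every library. Markers of cycling cells lay on the same side as the replication genes. All 10 of them, MKI67, CCNB1 and PLK1 included, were lower with both hairpins, and their summed level was 362 FPKM with shRNA1, 446 FPKM with shRNA2 and 704 FPKM in the control. None of the 10 passed limma over all genes, and all 10 were called lower with protein-coding genes tested alone. Their part in the results was not tested, and in bulk RNA fewer cells in S phase and less RNA per cell cannot be told apart.

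GINS2 was the 1 replication gene that limma called lower, and the machinery around it was lower in most but not all of its parts. GINS2 encodes a subunit of the GINS complex, which completes the active helicase. Its level was 6.18 FPKM with shRNA1, 7.46 FPKM with shRNA2 and 41.5 FPKM in the control, so both knockdown libraries lay far below the control. The knockdown mean of 6.82 ± 0.901 FPKM (SD, n = 2) was 16.4% of the control, a log2 change of -2.53 (SE 0.15). GINS2 passed limma, where its Benjamini-Hochberg adjusted p was 0.0361. Among 11546 tested protein-coding genes only 3 had a lower log2 change. Without the mean-variance trend (adjusted p of 0.0888) and with no filter on low genes (0.227) limma no longer called it, and over all alternatives its adjusted p ran from 0.000541 to 0.227. GINS2 lies at chr16:85676198-85690073 on the minus strand of GRCh38. It shares 7 of its 3264 exon bases with GSE1 on the other strand, and GSE1 was at 32.0, 28.0 and 30.4 FPKM in shRNA1, shRNA2 and control.

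Over the whole machinery, 45 of the 51 genes were lower with both hairpins than in the control, 3 were higher with both and 3 lay on either side. Of all tested genes 42.6% were lower with both and 42.4% higher with both. The median log2 change of the 51 was -0.47 for the knockdown mean, -0.52 for shRNA1 and -0.48 for shRNA2, whereas the median over all tested genes was 0.00 for the knockdown mean. At least 1.5-fold lower with both hairpins were 14 genes (27.5%), against a background of 5.99%. They were ORC1, ORC6, CDC6, DTL, MCM5, MCM7, MCM10, CDC45, GINS1, GINS2, PCNA, CLSPN, TIMELESS and ASF1B. On this scale GINS2 and CDC6 were at least 2-fold lower with both, against 1.45% of all tested genes. With a pseudocount of 0.1 or on plain FPKM, ORC1 and TIMELESS were too, making 4 genes against 1.83% and 1.99% of all tested genes.

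The formal calls were few. By limma 1 of 51 was called lower (background 0.267% of tested genes) and 0 were called higher (background 0.0839%). At an unadjusted p under 0.05, 35 of the 51 were lower and 0 higher, against 15.9% and 13.7% of all tested genes. The other 50 had adjusted p-values of 0.0721 to 0.994. With protein-coding genes tested alone, limma called 28 of the 51 lower and 0 higher, against 11.3% and 7.11% of protein-coding genes. Over all genes the test called 35 lower and 11 higher, and 111 lower and 65 higher with each library scaled to the same total.

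**Figure D1:**
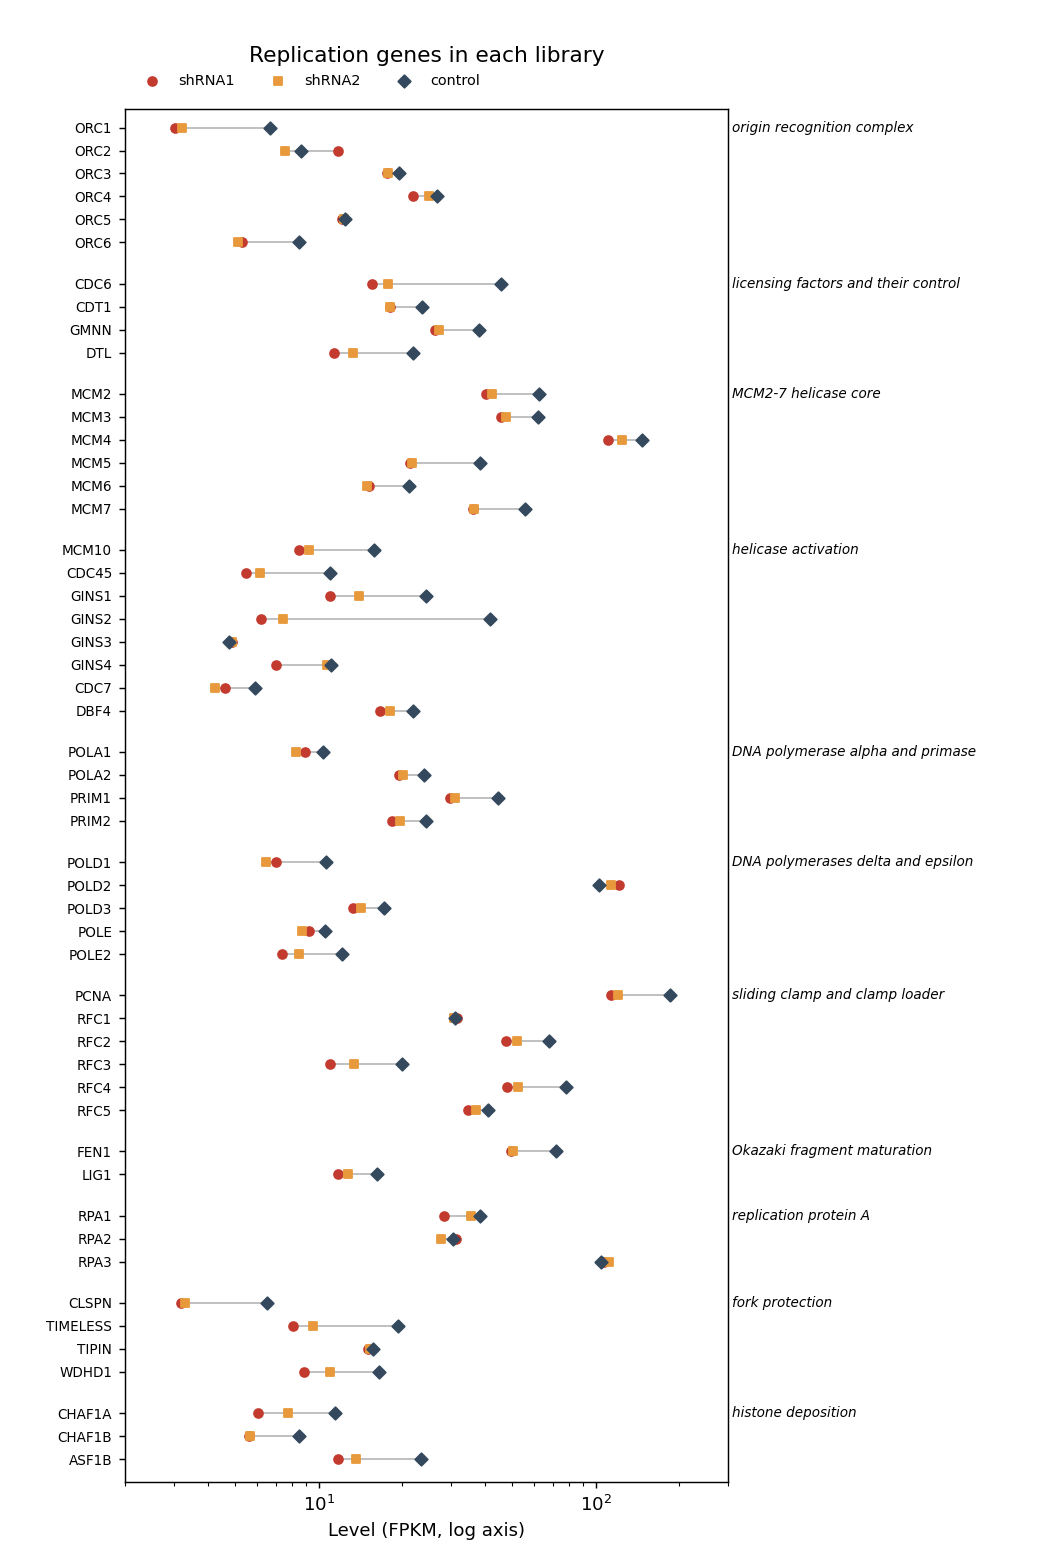
Level of each of the 51 replication genes (FPKM, log axis) in the shRNA1, shRNA2 and control libraries, grouped by step. The control diamond lies right of both hairpin markers for 45 genes, with the widest gap at GINS2, while GINS3, RFC1, ORC5, TIPIN and RPA3 have all 3 markers close together.

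Promoter sequence was compared because most of these genes were lower together. RefSeq promoters (GRCh38.p14, 250 bases before to 50 after the first listed start of each gene) were found for 45 of the 51 genes. Searched on both strands were the E2F words TTTCCCGC, TTTGGCGC, TTTCGCGC and TTTGCCGC, the CCAAT box CCAAT, and TTTGAA, the core of the cell cycle homology region (CHR) known from mitotic genes. TTTGGCGC can overlap by 4 bases with GCGCGAAA, the reverse complement of TTTCGCGC, and a promoter was counted once per kind of word. A match describes these letters and not a bound site.

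An E2F word was found in 19 of the 45 promoters (42.2%), against 5.56% of 9212 promoters of tested genes and 3.33% of all 27305 promoters. A CCAAT box was found in 26 of 45 (57.8%), against 37.4% of tested genes and 35.7% of all. The CHR core was found in 2 of 45 (4.44%), those of ASF1B and DBF4, against 9.18% of tested genes and 15.4% of all. The replication promoters had a median GC content of 65.7%, close to the 65.3% of tested genes.

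The CCAAT box was more frequent among the genes at least 1.5-fold lower with both hairpins than among the others. The margin depends on the pseudocount. With 0.5 a CCAAT box was in all 13 of the promoters found for genes at least 1.5-fold lower with both hairpins, and in 13 of the 32 others (40.6%). Genes nearest to the control, with log2 changes from -0.19 to 0.19, were mixed. ORC2, ORC3, POLD2, RFC1, RFC5 and TIPIN held a CCAAT box, and ORC4, ORC5 and GINS3 did not. With 0.1 or on plain FPKM, POLD1 and WDHD1 joined the lower genes, and neither holds one, so the counts were 13 of 15 (86.7%) and 13 of 30 (43.3%). RFC3, RFC4 and MCM2, with knockdown mean log2 changes of -0.69, -0.63 and -0.59, missed the limit with shRNA2 by little and hold none either. CHAF1A (-0.71) also missed it with shRNA2 by little, and holds 4 CCAAT boxes. An E2F word was in 7 of 13 (53.8%) and 12 of 32 (37.5%) with 0.5, and in 7 of 15 (46.7%) and 12 of 30 with 0.1. Among all tested genes at least 1.5-fold lower with both hairpins, 41.0% of 498 promoters held a CCAAT box and 5.82% an E2F word, near the shares of all tested genes. The CHR core was in 14.1% of those 498, against 9.18% of all tested genes. These shares are descriptions, the 1.5-fold groups rest on the same libraries, and no test was run on them.

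**Figure D2:**
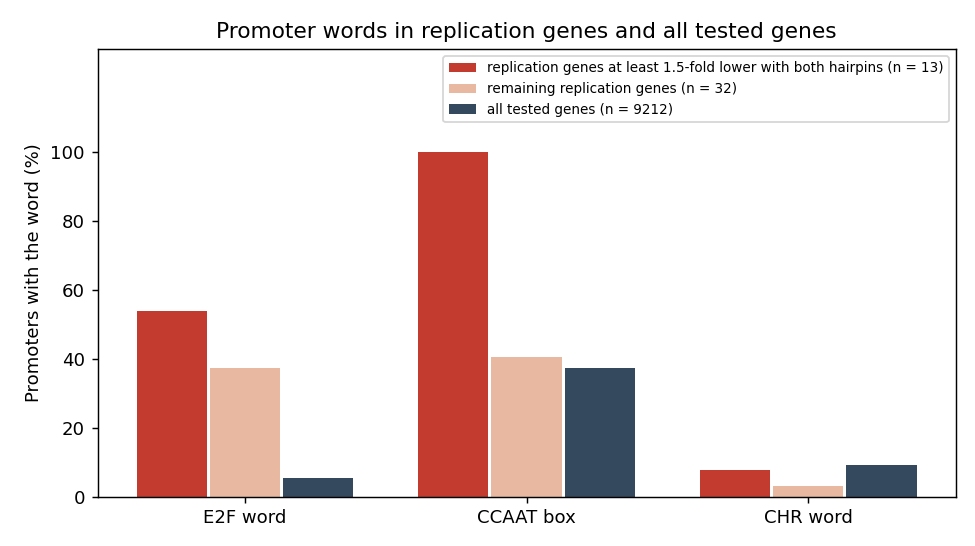
Percentage of promoters holding each kind of word in the 13 replication genes at least 1.5-fold lower with both hairpins, the 32 remaining replication genes and 9212 tested genes. The groups are set with a pseudocount of 0.5, where the CCAAT bar is at 100% in the first group, 40.6% in the second and 37.4% in all tested genes (86.7% and 43.3% in the first pair with 0.1), and both groups of replication genes stand above the 5.56% of tested genes for E2F words.

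The promoters of 8 genes are shown to set genes that were lower beside genes that were not. Each run is the 160 bases before the RefSeq start, 5′ to 3′ on the gene's own strand, with E2F words and CCAAT boxes of either strand in capitals. GINS2 (chr16:85688955-85689114, minus strand) and CDC6 (chr17:40287719-40287878, plus) were the lowest, CDC45 (chr22:19479760-19479919, plus), CLSPN (chr1:35769979-35770138, minus) and PCNA (chr20:5126623-5126782, minus) were at least 1.5-fold lower, MCM6 (chr2:135876444-135876603, minus) was lower by less, and GINS3 (chr16:58392311-58392470, plus) and RFC1 (chr4:39366363-39366522, minus) were at the control level.
GINS2: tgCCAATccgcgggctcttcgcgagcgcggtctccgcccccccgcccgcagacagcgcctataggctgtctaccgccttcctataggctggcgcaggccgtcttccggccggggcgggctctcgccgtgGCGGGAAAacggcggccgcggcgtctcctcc
CDC6: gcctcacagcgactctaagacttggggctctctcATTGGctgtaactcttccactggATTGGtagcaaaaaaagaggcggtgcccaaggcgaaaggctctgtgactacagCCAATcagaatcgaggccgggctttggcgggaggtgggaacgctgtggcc
CDC45: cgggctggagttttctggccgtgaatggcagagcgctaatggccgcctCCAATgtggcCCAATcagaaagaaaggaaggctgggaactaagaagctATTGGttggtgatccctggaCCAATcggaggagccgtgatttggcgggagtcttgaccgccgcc
CLSPN: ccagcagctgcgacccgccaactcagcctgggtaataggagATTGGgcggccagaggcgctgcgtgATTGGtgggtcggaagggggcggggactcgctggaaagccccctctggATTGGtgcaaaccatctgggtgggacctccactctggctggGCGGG
PCNA: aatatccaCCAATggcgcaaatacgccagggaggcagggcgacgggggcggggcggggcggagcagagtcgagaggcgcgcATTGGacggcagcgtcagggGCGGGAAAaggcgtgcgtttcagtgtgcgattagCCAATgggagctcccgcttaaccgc
MCM6: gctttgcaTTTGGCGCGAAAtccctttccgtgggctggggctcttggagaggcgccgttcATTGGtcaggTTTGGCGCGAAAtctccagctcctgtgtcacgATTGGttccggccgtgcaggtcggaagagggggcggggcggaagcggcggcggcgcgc
GINS3: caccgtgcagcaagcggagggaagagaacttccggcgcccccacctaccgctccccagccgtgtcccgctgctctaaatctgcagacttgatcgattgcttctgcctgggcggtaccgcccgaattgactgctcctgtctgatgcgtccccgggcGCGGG
RFC1: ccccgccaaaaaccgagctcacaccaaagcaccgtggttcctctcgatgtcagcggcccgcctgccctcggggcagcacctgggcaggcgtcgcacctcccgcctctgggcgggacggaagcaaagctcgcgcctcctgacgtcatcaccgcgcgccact

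In CLSPN and GINS3 the E2F word begins at position -5 and runs past the start, so only its first bases are shown, and in CDC6 it lies after the start, at position 8. CDC45 has 4 CCAAT boxes within 112 bases of its start. The stretches of CDC6 and CDC45 also hold tttggcgg, which differs from the E2F word TTTGGCGC in its last base and was not searched. RFC1, which was at the control level, holds the same letters on the other strand, as ccgccaaa. MCM6 has a pair of 12-base stretches in which 2 E2F words overlap. GINS3 holds an E2F word and no CCAAT box. RFC1 holds no E2F word, and its CCAAT box at position -188 lies outside the stretch shown. GINS3 and RFC1 do not stand for all genes near the control. ORC2 (position -67), ORC3 (-69), POLD2 (-68) and TIPIN (-91) hold a CCAAT box within a stretch of the length shown. ORC4 and ORC5 hold none, and that of RFC5 lies further out, at position -239.

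The origin recognition complex split by subunit. ORC1, its ATP-binding subunit whose level is known to vary through the human cell cycle, was at 3.02 FPKM with shRNA1, 3.21 FPKM with shRNA2 and 6.68 FPKM in the control. ORC6 was at 5.28, 5.11 and 8.52 FPKM in shRNA1, shRNA2 and control. Both genes were lower in both knockdown libraries, with log2 changes of -0.99 (SE 0.14) and -0.66 (SE 0.13) that did not pass limma (adjusted p of 0.0831 and 0.0894). The core subunits were near the control. ORC3 was at 17.6, 17.9 and 19.6 FPKM, ORC4 at 21.9, 25.1 and 26.7 FPKM and ORC5 at 12.1, 12.4 and 12.5 FPKM in shRNA1, shRNA2 and control. ORC2 had the widest gap between the hairpins of all 51 genes, at 11.8 FPKM with shRNA1, 7.59 FPKM with shRNA2 and 8.66 FPKM in the control. The control thus lay between the hairpins, and the log2 change of 0.12 has an SE of 0.29. The step as a whole had a median log2 change of -0.16, and of -0.40 without ORC2 and ORC4, whose loci overlap other tested genes.

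Among the licensing factors CDC6 stood apart. CDC6, the ATPase that recruits the helicase to the origin, was at 15.5 FPKM with shRNA1, 17.8 FPKM with shRNA2 and 45.4 FPKM in the control. Its knockdown mean of 16.7 ± 1.60 FPKM (SD, n = 2) was 36.7% of the control, a log2 change of -1.42 (SE 0.12) and its adjusted p in limma was 0.0721. CDC6 therefore missed the threshold, with adjusted p-values between 0.00317 and 0.227 under other settings. CDT1, the partner of CDC6 in loading, was at 18.1, 18.1 and 23.6 FPKM in shRNA1, shRNA2 and control, the smallest change of the step (log2 change -0.37). Geminin (GMNN), the inhibitor of CDT1, was at 26.4, 27.2 and 38.0 FPKM. DTL, the adaptor that directs a ubiquitin ligase to CDT1 in S phase, was at 11.4, 13.3 and 21.8 FPKM. All 4 genes were lower in both knockdown libraries. The FPKM ratio of CDT1 to its inhibitor was 0.687 with shRNA1, 0.665 with shRNA2 and 0.621 in the control.

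The 6 subunits of the MCM2-7 ring were all lower with both hairpins, within a narrow range. Their log2 changes ran from -0.82 (MCM5) to -0.32 (MCM4), a range of 0.49, against 1.11 for the origin recognition complex and 2.55 for helicase activation. MCM5 was at 21.4 FPKM with shRNA1, 21.7 FPKM with shRNA2 and 38.4 FPKM in the control. MCM4 was at 111, 124 and 147 FPKM in shRNA1, shRNA2 and control. Both subunits were lowest with shRNA1, and MCM4 was the most abundant of the ring in each library.

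The remaining ring subunits lay between them. MCM2 was at 40.3, 42.2 and 62.6 FPKM, MCM3 at 45.5, 47.4 and 61.7 FPKM, MCM6 at 15.2, 15.002 and 21.1 FPKM and MCM7 at 36.0, 36.5 and 55.6 FPKM in shRNA1, shRNA2 and control. MCM6 was the least abundant in each library. The protein ring holds 1 copy of each subunit, whereas the FPKM of the highest subunit was 7.29 times the lowest with shRNA1, 8.26 times with shRNA2 and 6.94 times in the control. The summed level of the ring was 69.6% of the control with shRNA1 and 74.3% with shRNA2. None of the 6 passed limma over all genes (adjusted p of 0.0829 for MCM5 to 0.150 for MCM4). MCM7 shares 392 of 4386 exon bases with AP4M1 on the other strand, which was at 12.9, 10.0 and 9.63 FPKM in shRNA1, shRNA2 and control.

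**Figure D3:**
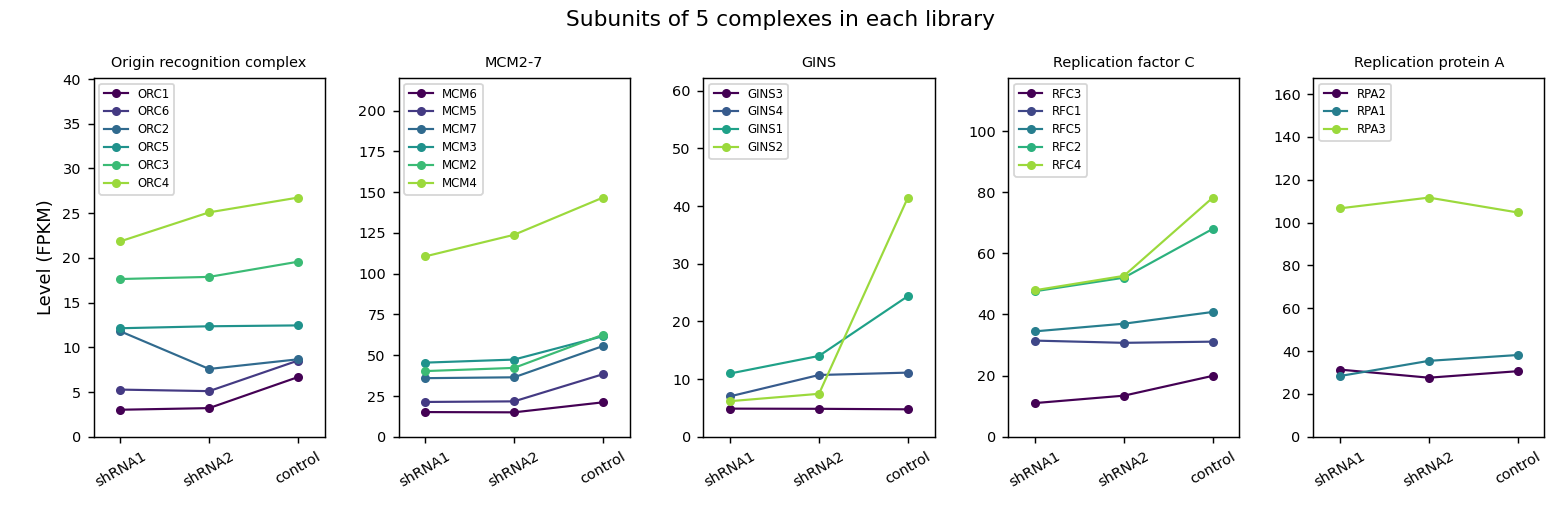
Levels (FPKM, linear axes that start at 0 and differ between panels) of the subunits of the origin recognition complex, MCM2-7, GINS, replication factor C and replication protein A in the shRNA1, shRNA2 and control libraries. GINS2 is the highest GINS subunit in the control at 41.5 FPKM and lies below GINS1 with both hairpins, while the order of the MCM2-7 subunits at the top and bottom of the ring (MCM4 and MCM6) is the same in all 3 libraries.

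Helicase activation held both the largest change and a gene at the control level. Besides GINS2, GINS1 was at 11.0 FPKM with shRNA1, 14.0 FPKM with shRNA2 and 24.4 FPKM in the control, a log2 change of -0.95 (SE 0.18). GINS3 was at 4.88, 4.85 and 4.77 FPKM in shRNA1, shRNA2 and control, a log2 change of 0.03 that turned to -0.04 with each library scaled to the same total. GINS4 was at 7.02 FPKM with shRNA1, 10.7 FPKM with shRNA2 and 11.1 FPKM in the control, with wide and overlapping deposited intervals (0 to 14.3 FPKM with shRNA1 and 1.78 to 20.5 FPKM in the control). The 4 GINS subunits form 1 complex in equal amounts. Their summed FPKM was 35.5% of the control with shRNA1 and 45.3% with shRNA2, and the ratio of GINS2 to GINS3 was 1.27, 1.54 and 8.70 in shRNA1, shRNA2 and control.

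CDC45, the third component of the active helicase, was at 5.46 FPKM with shRNA1, 6.15 FPKM with shRNA2 and 11.0 FPKM in the control. MCM10, which acts with it when the helicase starts to unwind, was at 8.50, 9.20 and 15.9 FPKM in shRNA1, shRNA2 and control. Their knockdown means were at 52.7% and 55.6% of the control, with both hairpin libraries below it. The kinase CDC7 was at 4.60, 4.22 and 5.88 FPKM and its activating subunit DBF4 at 16.7, 18.1 and 22.0 FPKM, log2 changes of -0.38 and -0.33. None of these 4 genes, nor GINS1, GINS3 or GINS4, passed limma over all genes (adjusted p of 0.0831 for MCM10 to 0.900 for GINS3).

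**Figure D4:**
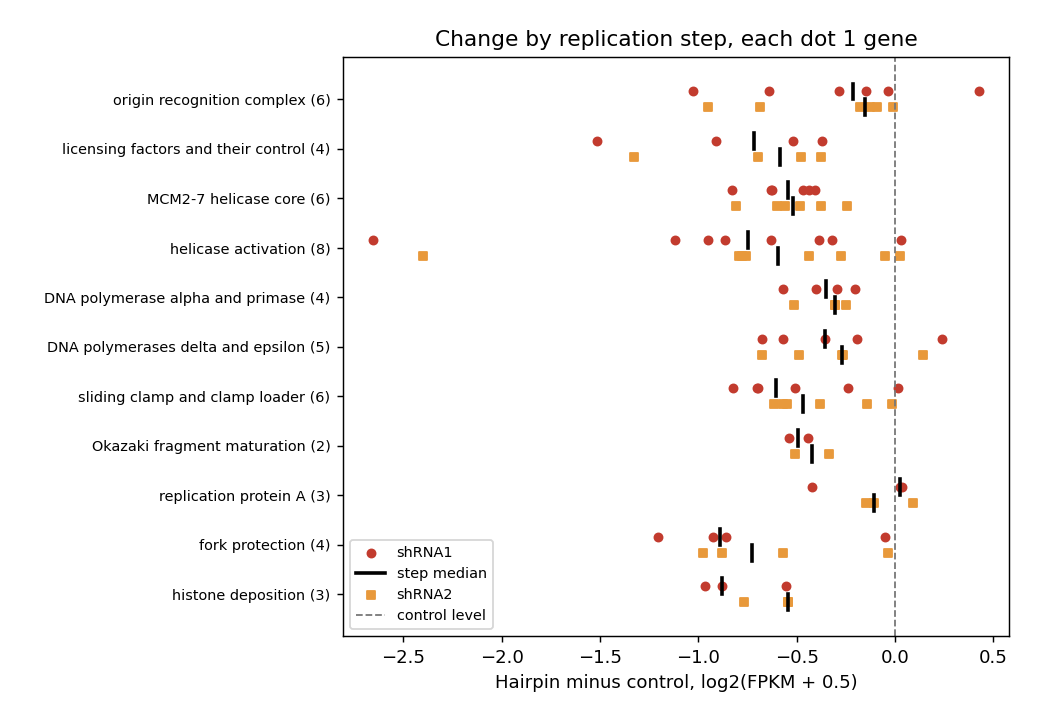
Log2 change of each replication gene against the control, log2(FPKM + 0.5), by step, with shRNA1 above shRNA2 in each step and black bars at the step medians. The number of genes in each step stands in brackets, and the medians of replication protein A lie at 0.03 with shRNA1 and -0.11 with shRNA2, nearest to the control of all 11 steps.

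The polymerase steps had smaller median changes than licensing, the MCM2-7 ring and helicase activation. In DNA polymerase alpha and primase the median log2 change was -0.31. PRIM1, the catalytic primase subunit, was at 29.9 FPKM with shRNA1, 31.1 FPKM with shRNA2 and 44.5 FPKM in the control, the lowest log2 change of the 4 at -0.54. POLA1, the catalytic polymerase subunit, was at 8.94, 8.29 and 10.4 FPKM in shRNA1, shRNA2 and control, the highest of the 4 at -0.25. POLA2 and PRIM2 lay between them, at 82.4% and 77.8% of the control. PRIM1 shares 33 exon bases with the far more abundant NACA (1708, 1585 and 1378 FPKM), and its deposited interval reached from 0 to 113 FPKM in the control.

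Polymerases delta and epsilon had the same median of -0.31, with catalytic and accessory subunits apart. POLD1, the catalytic subunit of delta, was at 7.02 FPKM with shRNA1, 6.48 FPKM with shRNA2 and 10.7 FPKM in the control (log2 change -0.62). Its accessory subunit POLD2 had the highest log2 change of the 51 genes. It was at 121, 113 and 103 FPKM in shRNA1, shRNA2 and control, above the control with both hairpins, and its log2 change of 0.19 (SE 0.09) did not pass limma (adjusted p of 0.238). The POLD1 to POLD2 ratio was 0.0579, 0.0572 and 0.104 in shRNA1, shRNA2 and control. In epsilon the order was the other way round. The accessory subunit POLE2 was at 7.41, 8.48 and 12.1 FPKM in shRNA1, shRNA2 and control (-0.58), and the catalytic subunit POLE at 9.20, 8.72 and 10.6 FPKM (-0.23). POLD3 was at 80.0% of the control.

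The sliding clamp and its loader had a median log2 change of -0.54, and the large loader subunit did not share in it. PCNA, the clamp that holds the polymerases on DNA, was at 114 FPKM with shRNA1, 120.5 FPKM with shRNA2 and 185 FPKM in the control, a log2 change of -0.66 (SE 0.09, limma adjusted p of 0.0829). Its processed copies PCNAP1, PCNAP3 and PCNAP4 were listed at 0 in every library. RFC3 had the lowest log2 change of the loader, at 11.0, 13.5 and 19.9 FPKM in shRNA1, shRNA2 and control (-0.69). RFC4 was at 47.9, 52.6 and 78.2 FPKM (-0.63) and RFC2 at 47.6, 52.0 and 68.0 FPKM (-0.45).

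RFC5 was at 34.5, 37.0 and 40.8 FPKM in shRNA1, shRNA2 and control (-0.19). RFC1, the subunit that opens the clamp with the small ones, was at 31.5, 30.7 and 31.1 FPKM. Its log2 change was 0.00 with an SE of 0.09, and the hairpins lay on either side of the control. The small subunits are shared with other clamp loaders, whereas RFC1 belongs to the replicative loader. The FPKM ratio of PCNA to RFC1 was 3.61 with shRNA1, 3.92 with shRNA2 and 5.93 in the control.

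Both enzymes of Okazaki fragment maturation were lower in both knockdown libraries. FEN1, the flap nuclease, was at 49.4 FPKM with shRNA1, 50.5 FPKM with shRNA2 and 72.1 FPKM in the control (log2 change -0.53, SE 0.08, limma adjusted p of 0.0837). LIG1, the ligase, was at 11.8, 12.7 and 16.2 FPKM in shRNA1, shRNA2 and control (-0.39). FEN1 shares 166 of its 2478 exon bases with TMEM258 on the other strand, which was at 148, 159 and 159 FPKM.

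Replication protein A, which coats single-stranded DNA in replication and in repair, was the step nearest to the control. RPA1, the large subunit, was at 28.4 FPKM with shRNA1, 35.5 FPKM with shRNA2 and 38.2 FPKM in the control. RPA2 was at 31.4, 27.6 and 30.6 FPKM in shRNA1, shRNA2 and control, with the control between the hairpins. RPA3 was at 107, 112 and 105 FPKM, above the control with both, a log2 change of 0.06 that turned to -0.02 with each library scaled to the same total. The summed level of the complex was 95.9% of the control with shRNA1 and 101% with shRNA2, and the adjusted p-values in limma were 0.339 to 0.763.

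The factors that guard the moving fork had a median log2 change of -0.81, and TIPIN stood apart from the other 3. This was the lowest step median, but helicase activation was lower with genes of at least 5 FPKM (-0.84, against -0.71 for fork protection). Without overlapping loci helicase activation and fork protection were both at -0.81, and histone deposition was left with ASF1B alone (-0.87). TIMELESS was at 8.08 FPKM with shRNA1, 9.56 FPKM with shRNA2 and 19.3 FPKM in the control, a log2 change of -1.09 (SE 0.14, limma adjusted p of 0.0829). TIPIN, its binding partner at the fork, was at 15.1, 15.3 and 15.7 FPKM in shRNA1, shRNA2 and control, a log2 change of -0.04. The ratio of TIMELESS to TIPIN was 0.535, 0.626 and 1.23 in shRNA1, shRNA2 and control, so TIMELESS was the more abundant transcript only in the control. Claspin (CLSPN), which carries the checkpoint signal from ATR to CHK1, was at 3.18, 3.30 and 6.49 FPKM (-0.90). WDHD1, which links polymerase alpha to the helicase, was at 8.89, 11.0 and 16.5 FPKM (-0.71).

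The 3 histone deposition factors, which place new nucleosomes behind the fork, had a median of -0.71. ASF1B, a chaperone of histones H3 and H4, was at 11.8 FPKM with shRNA1, 13.6 FPKM with shRNA2 and 23.5 FPKM in the control (-0.87). The large subunit of chromatin assembly factor 1, CHAF1A, was at 6.03, 7.74 and 11.5 FPKM in shRNA1, shRNA2 and control (-0.71). CHAF1B, its middle subunit, was at 5.61, 5.66 and 8.48 FPKM (-0.55). All 3 were lower in both knockdown libraries and none passed limma over all genes (adjusted p of 0.0837 to 0.116).

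The error given for each library was wide. The authors' bounds reached 33.2% to 154% above the FPKM of the 51 genes in the control, with a median of 49.7%, and were alike in the knockdown libraries. GINS2 was the 1 gene of 51 whose intervals in both knockdown libraries lay wholly below the control interval (0 to 13.8 FPKM with shRNA1, 0 to 16.7 FPKM with shRNA2 and 18.3 to 64.7 FPKM in the control), against 0.221% of all tested genes. With shRNA1 alone TIMELESS and GINS1 also met that criterion, and with a control interval of 18.0 to 72.9 FPKM CDC6 (5.83 to 25.3 FPKM) did not. The rule for a single hairpin is looser, and no share of all tested genes is given for it.

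**Figure D5:**
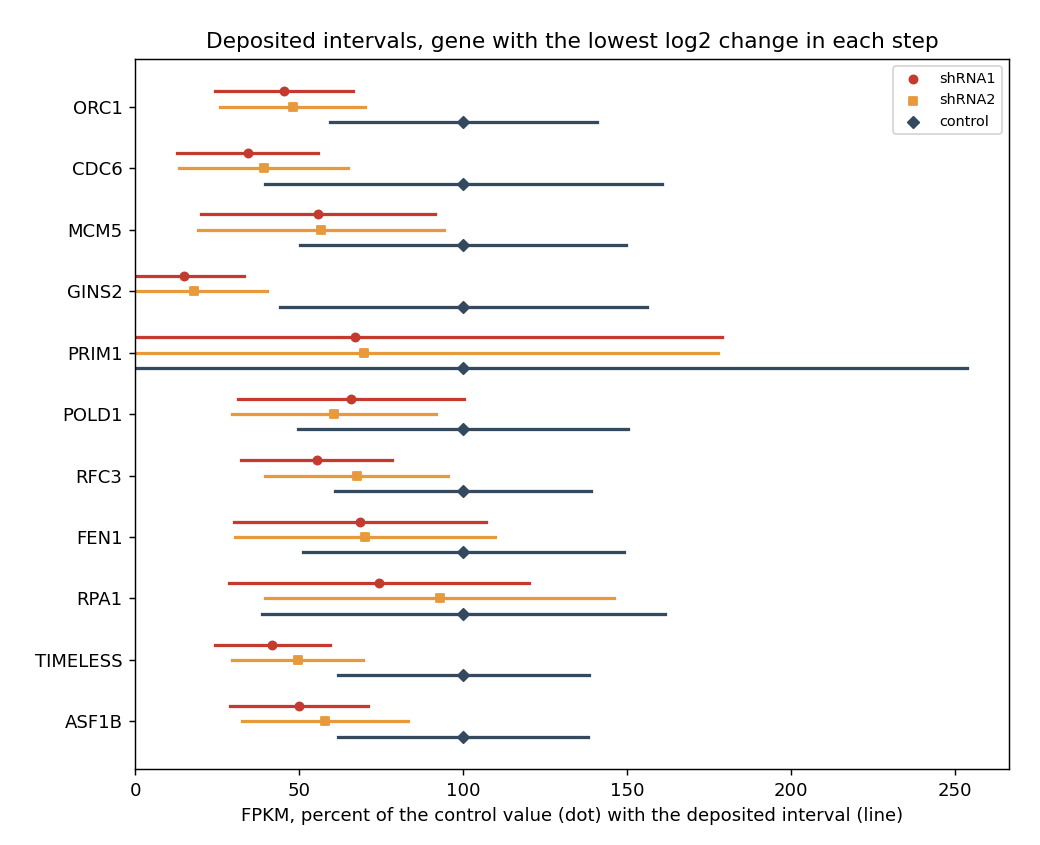
FPKM as a percentage of the control value, with the deposited interval as a line, for the gene with the lowest log2 change in each of the 11 steps, in shRNA1, shRNA2 and control. Only GINS2 has both hairpin lines ending left of the control line, and the PRIM1 lines start at 0 in every library.

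The hairpins differed in degree. Of the 51 genes 39 were lower with shRNA1 than with shRNA2 (76.5%), against 52.2% of all tested genes. The median difference, shRNA1 minus shRNA2, was -0.07 on the log2 scale, and -0.01 over all tested genes. It was widest for GINS4 (-0.58) in this direction and for ORC2 (0.61) in the other. Without regard to sign its median was 0.0997, against 0.116 over all tested genes. With each library scaled to the same total, 45 of the 51 genes were lower with shRNA1 than with shRNA2. The median log2 changes of all tested genes were then -0.12 with shRNA1 and -0.03 with shRNA2, so this scaling itself moved genes as a whole in that direction. The share of all tested genes under this scaling is not given, so the count is not a trait of the replication genes. ERINA itself was lower with shRNA1, by the values above. With 1 library per hairpin this difference has no replicate check.

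A further 51 genes linked to replication, covering accessory subunits, origin firing factors, RNase H2, checkpoint kinases and maintenance of DNA methylation, were less uniform. All 51 were tested, and their median log2 change was -0.16. With both hairpins 30 were lower and 16 higher, against 42.6% and 42.4% of all tested genes. By limma 0 passed in either direction. At an unadjusted p under 0.05, 19 were lower and 2 higher, against 15.9% and 13.7% of all tested genes. With protein-coding genes tested alone 13 were called lower and 2 higher, against 11.3% and 7.11% of protein-coding genes. The lowest was KIAA0101 (PCLAF), the PCNA-associated factor, at 13.9 FPKM with shRNA1, 25.8 FPKM with shRNA2 and 67.0 FPKM in the control, with the hairpin libraries far apart. Its locus overlaps CTD-2116N17.1. DSCC1, a subunit of an alternative clamp loader, was at 2.27, 2.91 and 6.01 FPKM in shRNA1, shRNA2 and control. The decatenating topoisomerase TOP2A was at 67.4, 90.1 and 144 FPKM, and the nuclease and helicase DNA2 at 6.00, 7.61 and 12.5 FPKM.

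At the other end were 2 subunits of RNase H2, which removes RNA from DNA. RNASEH2B was at 17.7 FPKM with shRNA1, 18.0 FPKM with shRNA2 and 13.0 FPKM in the control, and RNASEH2C at 54.7, 48.4 and 38.7 FPKM in shRNA1, shRNA2 and control. RNASEH2A, the catalytic subunit of the same RNase H2 complex, was on the other side at 40.9, 40.03 and 49.6 FPKM. The helicase-like factor HLTF was at 87.3, 82.8 and 72.1 FPKM and the ubiquitin ligase subunit DDB1 at 189, 182 and 162 FPKM. None of these 5 passed limma over all genes (adjusted p of 0.0986 to 0.208).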

How the data were processed

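RNA sequencing of T47D cells was analysed in 3 libraries, 2 of ERINA knockdown and 1 control, grouped by the genotype label. The deposited values are FPKM with a lower and an upper bound, per the file headers, whose confidence level is not given in the sources used here. Per the submitters' processing notes, tools and builds include STAR, RSEM and GRCh38, without versions or roles. Whether strand was used in counting, or libraries were rescaled, is not given in the sources used here, so overlapping genes on opposite strands may share reads. The 51 genes, their steps and the word lists were chosen with earlier results of these data known.

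Changes were tested with limma 3.58.1 in R 4.3.3 (lmFit, eBayes with a mean-variance trend) on log2(FPKM + 0.5) for genes averaging 1 FPKM or more, all 3 libraries, no covariates, Benjamini-Hochberg adjustment over all genes, after a test on simulated data with 200 changed genes. In every step the genes with the lowest and highest log2 change are given in each library, with every subunit of the ORC, MCM2-7, GINS, RFC and RPA complexes, any gene called and any gene higher with both hairpins. Of the further replication genes the 4 lowest and 4 highest are given, and RNASEH2A, chosen after its values were seen. Gene types, coordinates and exon overlaps came from GENCODE release 29 on GRCh38 and promoters from RefSeq. Depth was estimated from deposited bounds near 3 times the FPKM, taken as single fragments, in genes with 1 transcript of at least 2000 bases, and is approximate. No library shared a nonzero FPKM with another for any gene. Plots were drawn with matplotlib 3.10.9 and tables made with pandas 2.3.3 on numpy 2.4.6, under Python 3.11.15. Alternatives were pseudocounts of 0.1 and 1, no filter and a mean of at least 5 FPKM, libraries scaled to the same total, limma without trend or with its robust option, protein-coding genes alone, each hairpin left out, and genes with overlapping loci left out.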

Additional observations from a re-analysis of the deposited data

How the results depend on the processing

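The 1 control library, the wide deposited intervals and 1 residual degree of freedom limit every call. Limma's count of replication genes called lower was 1, and it became 0 with no filter, 0 without the trend and 0 without the 18 genes whose deposited locus overlaps another tested gene (GINS2 is one of them), 2 with libraries scaled to the same total, 18 with the robust option and 28 with protein-coding genes alone. Why these counts differ was not tested. Over all genes the counts were 0 lower and 0 higher with no filter, 111 and 65 with the same total, 595 and 430 with the robust option, and 1299 and 821 with protein-coding genes alone, and without the trend 6 were higher. The further replication genes had 2 called lower with the robust option and 13 lower and 2 higher with protein-coding genes alone. Scaling to the same total moved the median of all tested genes by -0.07, the median of the 51 genes to -0.55, and the medians of origin recognition to -0.24, MCM2-7 to -0.61, polymerase alpha and primase to -0.39, polymerases delta and epsilon to -0.39 and Okazaki fragment maturation to -0.53. GINS3 and RPA3 turned to -0.042 and -0.018. A mean of at least 5 FPKM moved helicase activation to -0.84, over fewer genes.

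Without the overlapping loci 33 genes remained, 29 lower with both hairpins and 23 lower with shRNA1 than with shRNA2, out of fewer genes. GINS2 was among those left out, so 1 gene was at least 2-fold lower and 0 had clear intervals. The medians were then -0.40 for origin recognition, -0.50 for licensing, -0.44 for MCM2-7, -0.81 for helicase activation and -0.41 for polymerases delta and epsilon. Okazaki fragment maturation was left with LIG1 alone (-0.39), and histone deposition with ASF1B alone. With a pseudocount of 0.1, 4 genes were at least 2-fold lower. Leaving out either hairpin gave 2 to 5 genes at least 2-fold lower and 1 to 3 with clear intervals. These single-hairpin rules are looser, and no shares of all tested genes are given for them. The medians were then -0.52 to -0.48 for the 51 genes, -0.22 to -0.15 for origin recognition, -0.75 to -0.60 for helicase activation and -0.35 to -0.31 for polymerase alpha and primase. The median of replication protein A ran from -0.11 to 0.026, so its sign rests on which hairpin is used. Counting any listed start, an alternative chosen after seeing the data, gave 22 promoters with an E2F word and 27 with a CCAAT box. The promoter shares with the fold groups set at other pseudocounts were also added after seeing the data. No paired analysis was possible because the single control library shares at most 1 replicate number with the knockdown group.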
